A study of Drosophila melanogaster with 2 samples.

Results

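The mitochondrial ribosomal protein genes of Drosophila melanogaster were taken as the protein-coding genes of the Ensembl BDGP6 annotation whose symbol starts with mRpL (large subunit) or mRpS (small subunit). The rule found 73 of 13968 protein-coding genes, 47 named for the large and 26 for the small subunit. The subunit was taken from the symbol alone, and the place of each protein in the ribosome was not checked. It leaves out mitochondrial ribosomal protein genes that carry another name, such as tko and bonsai. The data were ChIP-seq peak lists from whole embryos aged 0 to 24 h of a transgenic strain, in which the product of CG10321 carries an enhanced green fluorescent protein (eGFP) tag. The tagged protein was pulled down with anti-GFP. Sonication had cut the chromatin to pieces of 200 to 800 bp, and both biological replicates belonged to 1 group, so no condition could be compared with another. The labels list possible controls, which were not analysed here. Without read counts in the lists, sequencing depth is unknown. Whole embryos mix all cell types, so a peak cannot be assigned to a tissue.

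The mitochondrial ribosome translates the few messages of the mitochondrial genome, which encode subunits of the oxidative phosphorylation complexes. Its proteins are encoded in the nucleus, made in the cytoplasm and imported. Some descend from bacterial ribosomal proteins, and others are found only in mitochondria. Here the genes were sorted into these classes by the number in the symbol, and homology was not examined. Called mitochondria-specific were mRpL genes numbered 37 or above and mRpS genes numbered 22 or above, except mRpS24 and mRpS28. The rest were counted as having a bacterial counterpart. A gene is called bound here when the summit of a peak was at most 500 bp from one of its annotated transcription start sites. Signal values are those of the authors' peak caller, whose scale the labels and files leave unstated.

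In the conservative list, which draws on both replicates, 10 of the 73 genes were bound (13.7%, Wilson 95% interval 7.61% to 23.4%), beside 10.9% of all protein-coding genes. The 10 genes were mRpL18, mRpL20, mRpL23, mRpL24, mRpL34, mRpL41, mRpL53, mRpS2, mRpS10 and mRpS23. The thresholded list of replicate 1 held 8 of them (11.0%, 5.66% to 20.2%, beside 7.9% of all protein-coding genes). The list of replicate 2 held 8 as well (beside 8.16%), for a mean of 11.0% with an SD of 0 (n = 2). The same 8 genes were bound in both replicate lists, beside 5.54% of all protein-coding genes. In the conservative list and in each replicate list the interval of the members' share includes the share of all genes. For genes bound in both replicate lists the interval is 5.66% to 20.2%, and the 5.54% of all genes lies just below it. Among genes with another protein-coding start on the opposite strand within 500 bp, 7 of 53 members (13.2%) were bound in both, beside 8.82% of all such genes. Without such a neighbour it was 1 of 20 members (5%), beside 4.28%. Such a neighbour is called divergent below, although the rule did not check that the genes point away from each other. Intervals cover counting error over genes only, and no test was made on the list.

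Of the genes bound in at least 1 replicate list, 8 of 8 members were bound in both, beside 774 of 1470 protein-coding genes (52.7%). The bound members also had high peaks. Their median signal in the conservative list was 346.6, and that of all bound protein-coding genes was 112.4. The list of replicate 1 alone gave a median of 210 and that of replicate 2 alone 279, each over 8 genes.

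The DNA under the peaks is shown first for the 5 genes that were bound in both replicates at an intergenic summit and lie on arms whose sequence is printed here. The letters are from the RefSeq copy of the dm6 assembly, 5′ to 3′ on the coding strand of the mitochondrial ribosomal protein gene. For mRpL24, mRpS2 and mRpS10 the whole stretch between the member's start and the start of its divergent neighbour is given, and for mRpL20 and mRpS23 the 100 bases centred on the summit. Capitals mark the longest run of A and T alone within the 100 bases at the summit.
mRpL20 (beside Icmt), chr3L:13018081-13018180, - strand: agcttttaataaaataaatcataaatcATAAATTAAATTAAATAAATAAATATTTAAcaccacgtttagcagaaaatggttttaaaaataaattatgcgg
mRpL24 (beside betaggt-I), chr2L:4945362-4945578, - strand: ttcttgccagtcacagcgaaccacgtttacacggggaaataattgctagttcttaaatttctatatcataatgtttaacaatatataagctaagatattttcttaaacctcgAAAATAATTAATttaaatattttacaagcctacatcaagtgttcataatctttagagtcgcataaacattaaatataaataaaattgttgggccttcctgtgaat
mRpS2 (beside Mon1), chr2L:4850420-4850640, - strand: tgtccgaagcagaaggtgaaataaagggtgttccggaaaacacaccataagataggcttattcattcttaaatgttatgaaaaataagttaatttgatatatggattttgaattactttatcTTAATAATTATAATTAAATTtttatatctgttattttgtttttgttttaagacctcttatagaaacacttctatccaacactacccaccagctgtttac
mRpS10 (beside Art3), chr3R:15229409-15229664, + strand: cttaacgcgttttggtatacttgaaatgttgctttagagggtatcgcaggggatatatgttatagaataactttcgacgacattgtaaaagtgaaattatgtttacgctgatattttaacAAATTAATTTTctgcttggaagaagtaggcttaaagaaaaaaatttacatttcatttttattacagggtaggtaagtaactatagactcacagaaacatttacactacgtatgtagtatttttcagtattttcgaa
mRpS23 (beside CenG1A), chr2L:13835404-13835503, - strand: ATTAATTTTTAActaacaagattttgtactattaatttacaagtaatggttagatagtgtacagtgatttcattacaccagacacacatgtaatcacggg

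The stretches are rich in A and T. In the 100 bases centred on the summit, G and C made up 18% at mRpL20 and mRpS2, 20% at mRpL23, 23% at mRpL24 and mRpL41, 25% at mRpS10 and 29% at mRpS23. The weak peaks at mRpL18 (42%) and mRpL34 (49%) and the strongest peak, at mRpL53 (56%), stood on DNA with more G and C. The median over the 10 bound genes was 24%, beside 40% over all 1525 bound protein-coding genes (quartiles 28% and 52%) and 33% over the 698 of these with a divergent neighbour within 500 bp. It was 48% over the 43 bound cytoplasmic ribosomal protein genes.

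With a limit of 30% G and C, chosen after these values were seen, 7 of the 10 members lay below it, beside 430 of the 1525 bound genes (28.2%). Among bound genes with a divergent neighbour 38.3% lay below it, and among the others 19.7%. Within these 100 bases the longest run of A and T was 30 bases at mRpL20, 20 at mRpS2, 16 at mRpL23 and 14 at mRpL41, with a median of 12 over the 10 members and of 9 over all bound genes. Followed past the edges of the 100 bases, the longest run was 27 bases at mRpS2 and 24 at mRpL24, with medians of 13 over the members and 9 over all bound genes. The run at mRpL53 was 6 bases long when followed in this way. The promoters of the 73 genes, from 250 bases before to 50 bases after the start, were also somewhat poorer in G and C than those of all protein-coding genes (medians 34.7% and 38.0%). The median was 35.0% over the 63 promoters that were not bound.

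The strongest peak of the group was at mRpL53 (FBgn0050481), a mitochondria-specific protein of the large subunit. Its signal was 1563 in replicate 1, 1093 in replicate 2 and 2628 in the conservative list, where it ranked 42 of 3006. It stood far above the other members in every list. The peak, at 2R 13953906 to 13954319 (dm6), had its summit 88 bp upstream of mRpL53, in an intron of AGO1. AGO1 encodes the Argonaute protein of the microRNA pathway and is transcribed in the opposite direction. The summit was 82 bp upstream of the nearest AGO1 start, and CG33155 starts at the same base as mRpL53, so the peak cannot be given to 1 of these genes.

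The second peak by signal was at mRpL41 (FBgn0034001), another mitochondria-specific protein of the large subunit. Its signal was 327 in replicate 1, 382 in replicate 2 and 716 in the conservative list (rank 230). The summit was 145 bp upstream of the gene in intergenic DNA, in a peak at 2R 15217634 to 15217887. Among the bound members this was the only one without a divergent neighbour within 500 bp: the nearest other start, that of CG8079, was 617 bp from the summit.

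Next came mRpS10 (FBgn0038307), counterpart of a bacterial protein of the small subunit. Its signal was 194 in replicate 1, 356 in replicate 2 and 551 in the conservative list, with the peak at 3R 15229421 to 15229642. The summit lay almost midway between the divergent starts, 130 bp upstream of mRpS10 and 127 bp upstream of Art3, a gene for an arginine methyltransferase. At mRpS23 (FBgn0260407), a mitochondria-specific protein of the small subunit, the signal was 225 in replicate 1, 314 in replicate 2 and 544 in the conservative list. That peak, at 2L 13835348 to 13835567, lay closer to CenG1A, a centaurin gamma gene: its summit was 110 bp upstream of CenG1A and 382 bp upstream of mRpS23.

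A peak at mRpL23 (FBgn0035335), whose bacterial counterpart lies at the exit of the peptide tunnel, had a signal of 235 in replicate 1, 244 in replicate 2 and 476 in the conservative list. It lay within the gene. The summit of the peak, at 3L 2373495 to 2373717, was in the 5′ UTR of mRpL23, 71 bp downstream of the nearest of its 3 annotated starts and 121 bp upstream of CG9004.

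Peaks of intermediate signal were found at mRpL24, mRpS2 and mRpL20, which all have bacterial counterparts. At mRpL24 (FBgn0031651) the signal was 93.6 in replicate 1, 118 in replicate 2 and 217 in the conservative list. At mRpS2 (FBgn0031639) it was 96.2, 108 and 202 in the same order. Both summits lay between divergent starts: at 2L 4945416 to 4945554 it was 144 bp upstream of mRpL24 and 74 bp upstream of betaggt-I, the beta subunit of an enzyme that attaches geranylgeranyl lipids to proteins. At 2L 4850374 to 4850723 it was 130 bp upstream of mRpS2 and 92 bp upstream of Mon1, which acts in endosome maturation.

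At mRpL20 (FBgn0036335) the signal was 47.0 in replicate 1 (rank 1595 of 1996), 109 in replicate 2 (rank 676 of 2128) and 157 in the conservative list. It was the bound member on which the replicates differed most by rank, in the top 79.9% of 1 list and the top 31.8% of the other. The peak at 3L 13017956 to 13018305 had its summit 264 bp upstream of mRpL20 and 135 bp upstream of Icmt. Icmt encodes the carboxyl methyltransferase of prenylated proteins.

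The remaining peaks were weak and passed the authors' threshold only when the replicates were combined. At mRpL18 (FBgn0026741), counterpart of a bacterial protein that binds the smallest ribosomal RNA of the large subunit, the conservative signal was 53.8 (rank 2805, score 844). Below the threshold, the ranked lists held a peak there of signal 33.5 and score 581 in replicate 1 and of signal 26.5 and score 220 in replicate 2. The summit, in the peak at 2R 12756166 to 12756515, was in the 5′ UTR of Taz, the gene for the cardiolipin-remodelling enzyme tafazzin, 73 bp inside Taz and 93 bp upstream of mRpL18.

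At mRpL34 (FBgn0083983) the conservative signal was 47.1 (rank 2857, score 863), and the ranked lists held signals of 27.1 (score 135) and 35.3 (score 328) in replicates 1 and 2. These ranked summits did not coincide: that of replicate 1 was 152 bp downstream of the start and that of replicate 2 was 112 bp upstream. The conservative summit, in the peak at 2R 16098780 to 16099129, was 7 bp downstream of the start of mRpL34, in its 5′ UTR. It was 391 bp upstream of Dg, the dystroglycan gene. The other thresholded list of both replicates, in which 12.3% of protein-coding genes were bound, held 10 members too, but not mRpL34. It held mRpS24 in its place (FBgn0039159; signal 63.8, score 900), with the summit 265 bp upstream of mRpS24 and 156 bp upstream of Apc2, in the peak at 3R 24163635 to 24163984. In the ranked lists mRpS24 had a signal of 49.0 in replicate 1 and 20.8 in replicate 2.

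**Figure D1:**
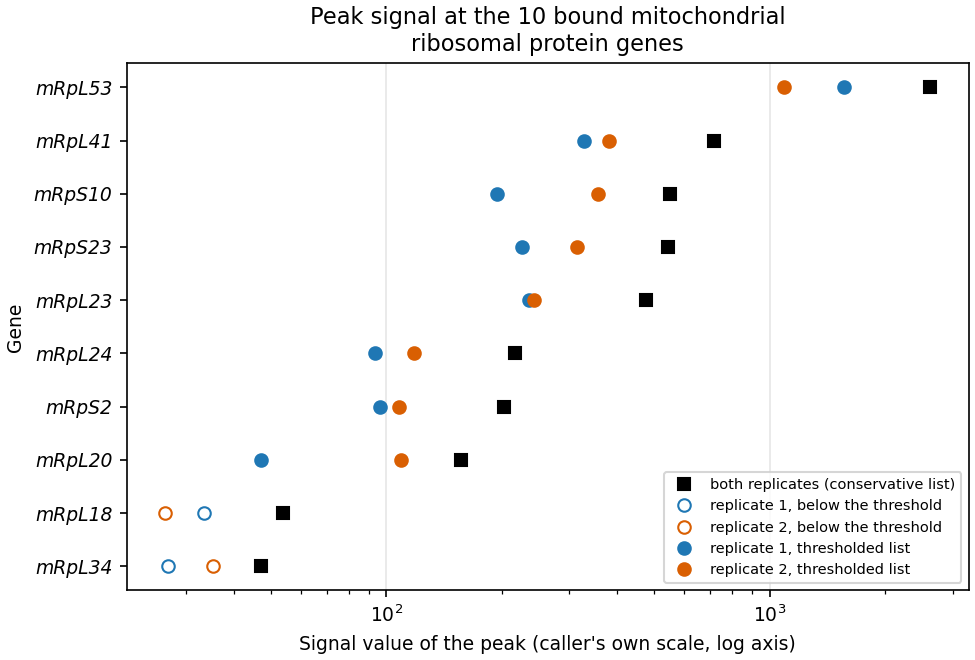
Signal value of the peak, on the peak caller's own scale and a log axis, at each of the 10 bound genes. Squares show the conservative list of both replicates and circles the replicates, filled where the peak was in the thresholded list. Open circles show the strongest ranked peak within 500 bp of the start, with positions not matched between replicates. mRpL53 (2628) stands above mRpL41 (716), and mRpL18 and mRpL34 are the only open circles.

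At the 8 genes bound in both replicates the peaks coincided. The summits of the replicates were 0 to 27 bp apart, with a median of 10 bp, and all 8 pairs of peaks overlapped by at least 50% of each. The rank was nearer the top in replicate 2 at 7 of the 8 genes, mRpL53 being the exception. Signals are not compared between replicates here because the scale of each list is its own.

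Relative to the start of the member, 8 of the 10 summits lay upstream (80%, Wilson interval 49.0% to 94.3%), beside 78.6% of the bound protein-coding genes. The distances ran from 382 bp upstream to 71 bp downstream, with a median of 130 bp upstream (116 bp upstream over all bound genes). The interval of the members' share is wide and includes that of all bound genes.

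The value just outside the 500 bp limit was that of mRpL17. Its nearest conservative summit was 850 bp upstream, in an intron of the divergent gene Tudor-SN, in a peak at 3L 263779 to 264056 with a signal of 634 (rank 261). Just inside, the farthest bound summit was the one at mRpS23.

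A divergent neighbour was common among these genes. Of the 73, 53 (72.6%) had the start of another protein-coding gene on the opposite strand within 500 bp, beside 3878 of 13968 protein-coding genes (27.8%) and 34 of 89 cytoplasmic ribosomal protein genes (38.2%). So did 8 of 13 mitochondrial DNA and transcription genes (61.5%) and 39 of 80 respiratory chain and ATP synthase genes (48.8%). The share was 7 of 15 (46.7%) for mitochondrial aminoacyl-tRNA synthetases, 7 of 15 for import and 3 of 9 (33.3%) for mitochondrial translation factors. Among the bound genes, 9 of the 10 members had a divergent neighbour, beside 698 of 1525 (45.8%). The distance between the starts, whichever way the genes face, had a median of 264 bp over the 53 members and of 241 bp over the 3878 genes.

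Set beside genes with the same arrangement, the members' share of bound genes was close to theirs. With a divergent neighbour, 9 of 53 members (17.0%, 9.20% to 29.2%) and 18.0% of all such genes were bound. Without one, 1 of 20 members (5%) and 8.20% of all such genes were bound. Divergent genes share their summits: at 7 of the 10 bound members the conservative summit was nearer to the start of the neighbour than to that of the member. At mRpL53 (82 bp against 88 bp) and mRpS10 (127 bp against 130 bp) this margin was small beside the 0 to 27 bp between replicate summits. In replicate 2 the mRpL53 summit was 78 bp from the shared start of mRpL53 and CG33155, with no other start nearer. When each summit was given only to the nearest start, mRpL23, mRpL34 and mRpL41 remained, 3 of 73 genes (4.11%, beside 8.71% of all protein-coding genes).

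**Figure D2:**
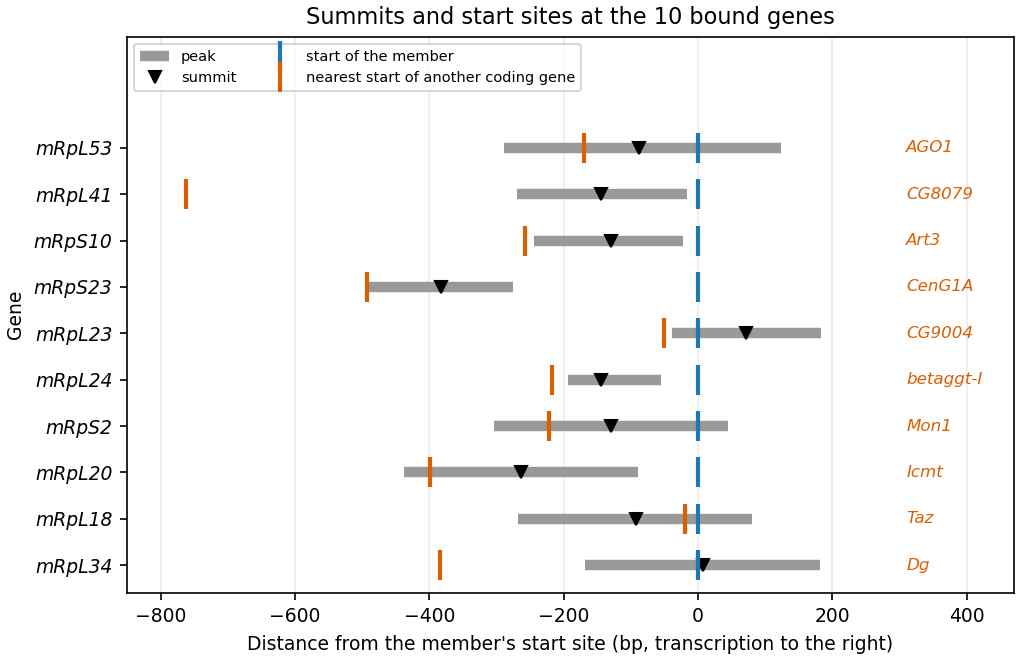
Position of the peak (grey bar), its summit (triangle), the start of the member (blue) and the nearest start of another protein-coding gene (orange, named at the right) in bp from the member's start, with transcription of the member to the right. In 7 of the 10 genes the conservative summit lies nearer to the neighbour, at mRpL53 and mRpS10 by only a few bp. The exceptions are mRpL23, mRpL34 and mRpL41.

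**Figure D3:**
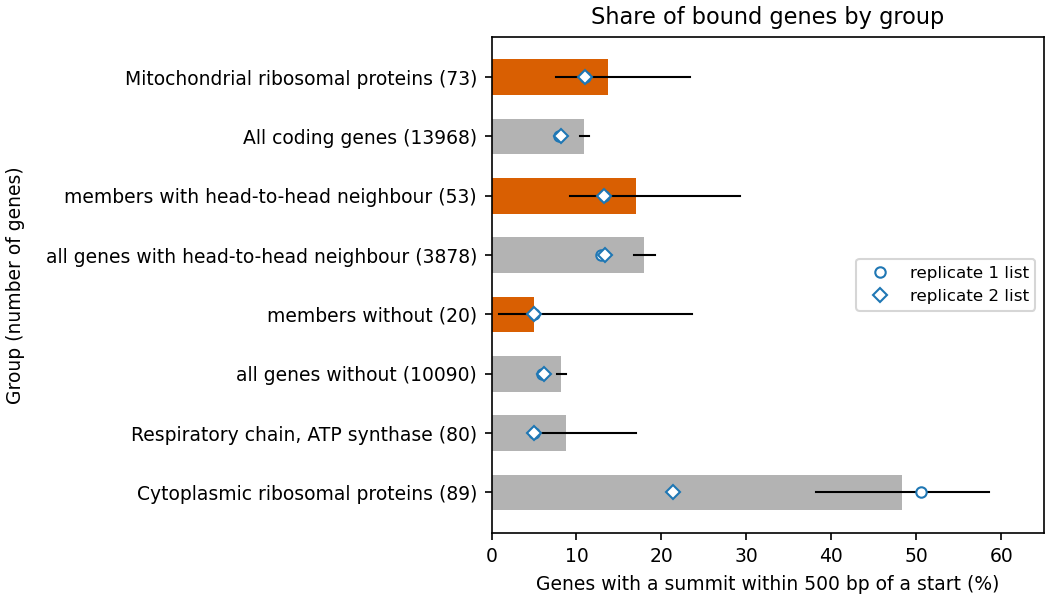
Percent of genes with a summit within 500 bp of a start in the conservative list (bars, with Wilson 95% intervals) and in the replicate lists (symbols). Members and all genes with a divergent (head-to-head) neighbour are at 17.0% and 18.0%, and cytoplasmic ribosomal protein genes are at 48.3% with replicate values of 50.6% and 21.3%.

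By subunit as named, 7 of 47 mRpL genes (14.9%) and 3 of 26 mRpS genes (11.5%) were bound in the conservative list, beside 10.9% of all protein-coding genes. Each replicate list held 5 and 3 of them, beside 7.9% of all protein-coding genes in replicate 1 and 8.16% in replicate 2. By class as numbered, 7 of 44 genes with a bacterial counterpart (15.9%) and 3 of 29 mitochondria-specific genes (10.3%) were bound in the conservative list. Each replicate list again held 5 and 3. These shares rest on few genes, and the Wilson interval of each conservative share includes the 10.9% of all genes. The mitochondria-specific genes among the bound were mRpL41, mRpL53 and mRpS23, which include the strongest peaks. By chromosome arm, 3 of 12 genes were bound on 2L (beside 11.1% of all protein-coding genes on that arm), 4 of 12 on 2R (beside 11.3%), 2 of 17 on 3L (beside 11.8%) and 1 of 21 on 3R (beside 10.6%). On X it was 0 of 11, beside 220 of all 2196 protein-coding genes there. For a count of 0, here and in what follows, the share allowed is given as 3 counts of the total, which is 27.3% for these 11 genes (the Wilson 95% upper limit is 25.9%).

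The ranked lists show the remaining members below the authors' threshold. A ranked summit of any score lay within 500 bp of 54 of the 73 genes in replicate 1 (74.0%, beside 67.9% of all protein-coding genes) and of 45 in replicate 2 (61.6%, beside 63.2%). The median signal of the strongest such peak was 20.5 over the members and 19.4 over all genes in replicate 1, and 17.5 over both in replicate 2. At the 46 members that had a ranked peak in replicate 1 but were not in its thresholded list the median was 18.8 and the highest value 49.0, at mRpS24. At the 37 such members of replicate 2 the median was 16.2 and the highest value 35.3, at mRpL34. The corresponding medians over all genes were 17.9 and 16.0; the members' medians are close to these.

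In all, 62 of the 73 genes were bound in none of the 4 thresholded lists. Of these, 27 had a ranked summit in both replicates, with positions not matched, and 12 in neither. The same counts were not made over all protein-coding genes, so no background stands beside them. The strongest of the 62 in replicate 1 were mRpL17 (39.6), mRpS26 (37.6) and mRpL1 (32.6), and in replicate 2 mRpL28 (33.6), mRpS7 (30.9) and mRpL16 (30.2). The replicates ordered them differently: only mRpL17, mRpS26 and mRpL44 were among the 10 highest in each, and mRpL1 had no ranked summit in replicate 2. Scores of at least 540, a looser limit, were reached in replicate 1 by 4 of the 65 members outside its thresholded list, which were mRpL1, mRpL18, mRpS24 and mRpS26 (6.15%, beside 3.42% of all protein-coding genes outside that list). In replicate 2 they were reached by 0 of 65, which allows a share of up to 4.62% (beside 2.21%).

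**Figure D4:**
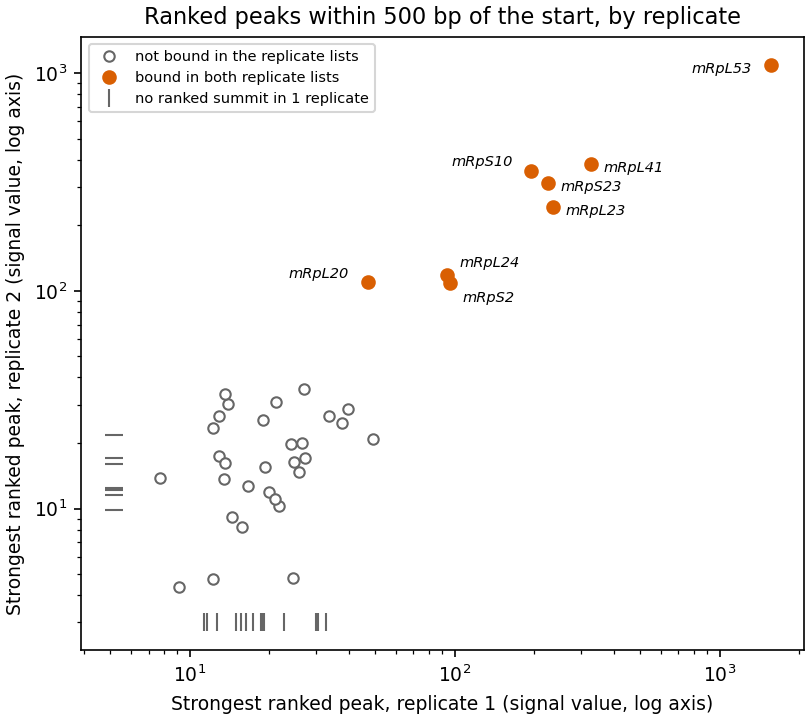
Signal of the strongest ranked peak within 500 bp of the start in replicate 1 (horizontal) and replicate 2 (vertical), both on log axes, with 1 point for each member. The peak was chosen in each replicate without matching positions. The 8 named genes are those that passed the threshold in both replicate lists, so their place above most open circles follows from that choice. The open circles reach 49.0 (mRpS24) in replicate 1, above mRpL20 (47.0), and 35.3 in replicate 2, below all 8. Dashes at the edges are genes with a ranked summit in 1 replicate only.

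Short sequence words were counted in the promoters, from 250 bases before to 50 bases after the start, on both strands, beside the promoters of all protein-coding genes. A match is a description of the letters and not a binding site. The word with the widest gap was CAGCTG, an E-box and the core of Ohler motif 5 of fly core promoters. It was present in 40 of 73 promoters (54.8%), beside 17.6% of all promoters and 25.0% of promoters with a divergent neighbour. It was as frequent in members without a divergent neighbour (11 of 20, 55%) as in those with one (29 of 53, 54.7%).

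The matches clustered at the start. In 35 of the 73 promoters (47.9%) the middle of a CAGCTG match was within 50 bases of the start, beside 9.54% of all promoters. The 50 bases after the start held a match in 23 members (31.5%, beside 4.75%) and the 50 bases before it in 12 (16.4%, beside 5.11%). In the more distant bins the shares were at most 6.85%. The longer word AACAGCTG was present in 27 of the 73, beside 7.60% of all promoters. Examples follow as 30 bases on the coding strand, from the RefSeq copy of dm6, with CAGCTG in capitals: first 3 bound genes, then the 5 unbound genes whose match to the longer word, on either strand, was nearest to the start.
mRpL23, chr3L:2373715-2373744, - strand: gtggttgacaatCAGCTGtttaaaacaagt
mRpL24, chr2L:4945324-4945353, - strand: ttcagttctcaaCAGCTGattgcaagccgc
mRpS2, chr2L:4850413-4850442, - strand: aacactacccacCAGCTGtttaccaaaatc
mRpL11, chr3R:14511821-14511850, + strand: cagcaataccatCAGCTGttgctgcttctt
mRpL46, chr3L:1777425-1777454, + strand: tgtgccgcaaatCAGCTGttccggctctgg
mRpS21, chr3R:13381790-13381819, - strand: agtgatattcatCAGCTGtttagcagtaca
mRpS34, chr3L:16348064-16348093, + strand: agccagccggcaCAGCTGttcgaccttccc
mRpS35, chr3L:2780875-2780904, + strand: agtttctgtaaaCAGCTGattgcttgctat

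**Figure D5:**
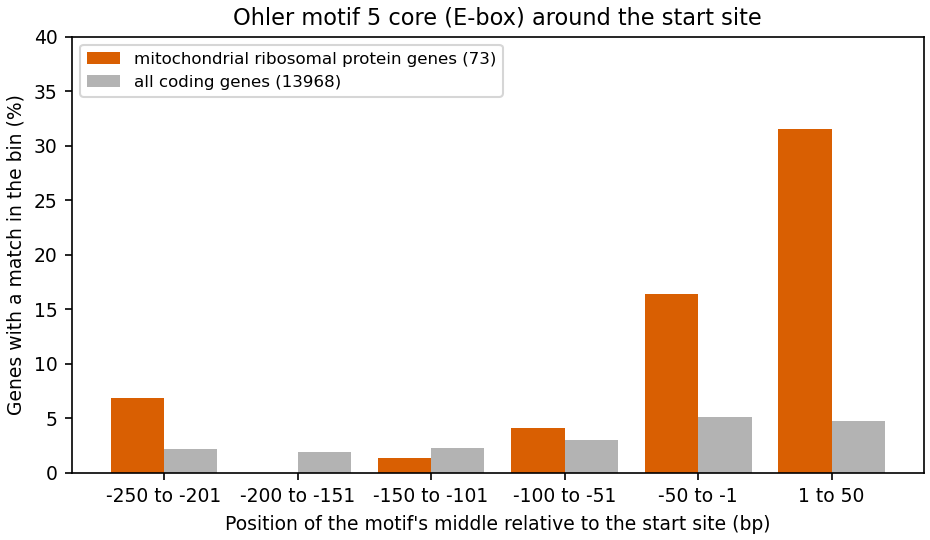
Percent of genes with a match to the E-box core of Ohler motif 5 in each 50 bp bin around the start, for the 73 mitochondrial ribosomal protein genes (orange) and all 13968 protein-coding genes (grey). The members' bars rise to 16.4% in the bin before the start and 31.5% in the bin after it.

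CAGCTG was in the promoters of 6 of the 10 bound members and of 34 of the 63 others (54.0%). The longer word AACAGCTG was in the same 6 bound promoters and in 21 of the 63 others (33.3%). Within the 100 bases at the summit CAGCTG was found at 1 of the 10, mRpL18, beside 6.62% of all bound genes. Elsewhere the match nearest to the summit was 91 bp away at mRpL24, 107 bp at mRpL53, 113 bp at mRpS2, 123 bp at mRpL23 and 138 bp at mRpL41. It was 329 bp away at mRpL34, 675 bp at mRpS23 and 858 bp at mRpL20, and at mRpS10 there was no match within 1000 bp.

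CAGCTG was also frequent in the promoters of other genes for mitochondrial gene expression: 5 of 9 mitochondrial translation factors, 7 of 15 mitochondrial aminoacyl-tRNA synthetases and 6 of 13 genes for mitochondrial DNA maintenance and transcription held it. Among respiratory chain and ATP synthase genes 19 of 80 held it (23.8%), as did 4 of 15 for mitochondrial import and 8 of 89 for cytoplasmic ribosomal proteins (8.99%). No test was made on these lists.

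Among the other words, TATCGATA (the DNA replication-related element, DRE) was in 15 of the 73 promoters (20.5%, beside 9.36%), and CGATA, which is contained in it, in 43 (58.9%, beside 47.3%). Of the remaining core promoter words, GGTCACAC (core of Ohler motif 1) was in 8 (11.0%, beside 7.69%), and CANCNCTA (Ohler motif 7) in 16 (21.9%, beside 15.5%). The GAGA element GAGAGAG, present in 11.7% of all bound promoters, was in 1 member (1.37%, beside 5.86% of all promoters). It was at 0 of the 10 member summits, which allows a share of up to 30%, beside 7.15% of all bound genes.

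The initiator word TCAGTT was in 13 promoters (17.8%, beside 26.1%), the TATA box TATAAA in 34 (46.6%, beside 45.8%) and the homeodomain core TAATTA in 15 (20.5%, beside 20.4%). TAATTA was within the 100 bases at the summit of 2 of the 10 bound members, beside 7.93% of all bound genes. These were mRpL24 and mRpS2, where it lay within the AT-rich stretches of the promoters. CACGTG, another E-box, was in 5 promoters (6.85%, beside 4.20%), TGCGCATG (core of the NRF1 motif) in 1 (1.37%, beside 1.09%) and CCGGAAG (Ets) in 0, which allows a share of up to 4.11% (beside 1.09%).

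Of the genes in 4 other lists for mitochondrial gene expression and import, 5 of 52 were bound (9.62%), close to the 10.9% of all protein-coding genes. Of 9 mitochondrial translation factors 0 were bound, which allows a share of up to 33.3% (Wilson 95% upper limit 29.9%). Of 15 mitochondrial aminoacyl-tRNA synthetases 1 was bound, SerRS-m (signal 69.7), and of 13 genes for mitochondrial DNA and transcription 2, mtSSB (101), the single-stranded DNA-binding protein, and PolG2 (58.4), the accessory subunit of the mitochondrial DNA polymerase. None of these 3 was bound in a replicate list. Of 15 import genes, Hsc70-5 (112), a mitochondrial chaperone, and Tom7 (99.6), of the outer membrane translocase, were bound.

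The proteins that the mitochondrial ribosome's products join gave 7 bound of 80 respiratory chain and ATP synthase genes (8.75%; 5% in each replicate list), with the highest signal at ND-39 (224), a subunit of complex I. Cytoplasmic ribosomal protein genes were bound at 43 of 89 (48.3%), led by RpL7 (288), RpS27 (255), RpL14 (190) and RpL23A (161). For these the replicate lists disagreed, with 50.6% in replicate 1 and 21.3% in replicate 2, whereas the mitochondrial ribosomal protein genes had 11.0% in each. Fewer of the mitochondrial genes were bound, yet peaks near 5 of them (mRpL53, mRpL41, mRpS10, mRpS23 and mRpL23) had a higher signal than the strongest peak at a cytoplasmic ribosomal protein gene. At mRpL53, mRpS10 and mRpS23 the conservative summit was nearer to the start of a neighbouring gene.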

How the data were processed

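Per the labels, chromatin from 2 replicates of the CG10321-eGFP strain was precipitated with anti-GFP. The authors deposited peak lists in dm6. The sources used here do not give the aligner, the peak caller or which of the possible controls, if any, was used. Column 5 of the deposited lists holds a score up to 1000 (at least 830 in thresholded lists), column 7 the authors' signal value on an unstated scale, and column 10 the summit offset. In the series' ranked lists, 16 per-input columns matched no replicate and were not used. The lists hold no depth.

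Summits (3006 conservative, 1996 and 2128 in the replicate lists, on the chromosome arms) were matched to starts of Ensembl release 115 with Python 3.11.15, numpy 2.4.6, pandas 2.3.3 and scipy 1.17.1. A check on planted summits preceded this. Words were sought in the RefSeq sequence of the same assembly. Genes are described by counts, Wilson 95% intervals (for a count of 0, also 3 counts of the total) and the share of all protein-coding genes, with no test. Named were all members bound in any thresholded list, a member bound within 1000 bp, the 10 strongest other members per replicate, of which the leading ones and those shared are given, their neighbours, and up to 4 genes per comparison list. Members and lists were chosen with earlier results of these data known. The symbols mEFG2 and Tim14 matched no gene. Alternatives were other lists, thresholds, distances and start choices.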

Additional observations from a re-analysis of the deposited data

How the results depend on the processing

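The count of 10 bound members stayed between 8 and 12 under 9 alternatives of list, threshold, distance and start choice. mRpL18 and mRpL34 were lost in either replicate alone and among peaks at or above the median signal, mRpL20 and mRpS23 at 200 bp, and mRpL34 gave way to mRpS24 in the other list. mRpL17 was gained at 1000 bp, and mRpS24 and mRpS26 at a score of 540. When each summit counted only for the nearest start, 3 members remained, since a shared summit then goes to 1 gene. The share of all protein-coding genes moved too: it was 7.9% and 8.16% in single replicates, 6.2% with peaks at or above the median signal, 7.74% at 200 bp, 13.4% at 1000 bp, 15.6% at a score of 540 (members 16.4%), 9.11% with the 5' most start, 12% with any base of the peak, 12.3% in the other list and 8.71% with the nearest gene only (members 4.11%). The members' median signal, 346.6, was 210 to 279 in single replicates, where each list has its own scale and fewer genes. The 8 genes bound in both replicates were 8 under either overlap rule, and the upstream share was 70% when measured to the nearest start of any coding gene. Motif counts over the 73 promoters were higher for all 12 words in the wider window of 500 bp to each side. That window contains the promoter window, so no count could fall. CAGCTG was in the wider window of 53 members (72.6%, beside 42.0% of all protein-coding genes). The counts at summits cover only the 10 bound members and are not set beside the promoter counts. No paired analysis was possible because there is only 1 group. Read depth and a control were not analysed here, so weak peaks such as mRpL18 and mRpL34 rest on the authors' threshold alone.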
